A study of Mus musculus with 15 samples.

Results

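The genes described here are 7 transcripts used to follow the mural cells of blood vessels, namely Acta2, Tagln, Cnn1, Pdgfrb, Rgs5, Vtn and Anpep. They were taken by gene name from a table of 14237 genes, and all 7 members were present and were tested. The data are RNA-seq of whole optic nerve from C57BL/6J mice, given as adult, in 3 groups of 5 biological replicates, numbered 2 to 6 in the labels. Mice of the crush groups received an injection into the vitreous of an adeno-associated virus of serotype 2 (AAV2), either AAV-CNTF, which expresses a secretable form of the cytokine CNTF, or AAV-null, the control virus. Crush of the nerve followed 2 weeks later, and the nerve was taken 7 days after the crush. Sham mice received AAV-null and had the nerve exposed without a crush, and the times of their operation are not given in the labels. Both control groups therefore carried a virus, and no group was without an injection. Which ocular cells took up the virus is not stated in the sources used here.

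Mural cells wrap the endothelial tube of blood vessels. Smooth muscle cells cover arteries and arterioles and contract through a cytoskeleton rich in alpha smooth muscle actin (Acta2), transgelin (Tagln, an actin-binding protein also called SM22 alpha) and calponin (Cnn1, an inhibitor of the actomyosin ATPase). Pericytes sit on capillaries, need signalling from the PDGF-BB ligand through the receptor tyrosine kinase Pdgfrb, and carry Rgs5, which shortens G protein signalling. In the central nervous system pericytes also make vitronectin (Vtn), a secreted ligand of alpha v integrins, and carry aminopeptidase N on their surface (Anpep, also called CD13). None of these genes belongs to mural cells alone: Acta2 and Tagln are also made by myofibroblasts, Pdgfrb by fibroblasts, and Anpep by myeloid cells and fibroblasts. The transcripts of the contractile apparatus are known targets of serum response factor, which binds the CArG box, a run of A and T bases between CC and GG.

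In the GENCODE annotation of mm10, Acta2 (ENSMUSG00000035783.8) lies at chr19:34241090-34255590 on the minus strand, Tagln at chr9:45929619-45936058 on the minus strand and Cnn1 at chr9:22099216-22109630 on the plus strand. Pdgfrb lies at chr18:61045150-61085061 (plus strand), Rgs5 at chr1:169655501-169695813 (plus), Vtn at chr11:78499091-78502324 (plus) and Anpep at chr7:79821803-79861059 (minus). Tagln overlaps the antisense gene Gm48529 and the end of Pcsk7 on the opposite strand. The sources used here do not say whether the counting used strand, so reads from the overlapping stretches may not have been told apart. Anpep overlaps Gm44974 on its own strand. Of the 50-base stretches of the Acta2 transcripts 0.326% also occur in another gene, Gm12715, and none of the other 6 members shares a stretch of that length with another gene.

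Promoter windows of RefSeq (build GRCm38.p6, 250 bases before each gene's start) were examined for 5 of the 7 members. Those of Tagln and Pdgfrb were not examined. A CArG box with A and T only between its ends was found in 1.47% of 32851 windows and in none of the 5. With at most 1 inner G or C allowed, 8.59% of windows held one, among them that of Acta2, which held 2, at -84 to -75 and at -34 to -25 from the RefSeq start. These 2 stretches of 30 bases are shown, 5′ to 3′ on the strand of Acta2, because the gene has the largest fold change of the 3 contractile members. Capitals mark the CArG-like box. The RefSeq and GENCODE starts of Acta2 differ: in GENCODE 217 of the 250 bases of the window lie in an exon of Acta2, and both boxes lie within that exon and not before the start.

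Acta2 at -84, chr19:34255438-34255467 (minus strand): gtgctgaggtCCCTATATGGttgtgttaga

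Acta2 at -34, chr19:34255388-34255417 (minus strand): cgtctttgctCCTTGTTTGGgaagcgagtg

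For comparison, sequences before the RefSeq starts of Cnn1, a second contractile member that rose, and of Anpep, the member with the largest rise, are shown in the same way, and capitals mark E boxes (letters CANNTG, a palindrome, read on both strands and found in 66.22% of windows).

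Cnn1 from -250 to -38, chr9:22099003-22099215 (plus strand): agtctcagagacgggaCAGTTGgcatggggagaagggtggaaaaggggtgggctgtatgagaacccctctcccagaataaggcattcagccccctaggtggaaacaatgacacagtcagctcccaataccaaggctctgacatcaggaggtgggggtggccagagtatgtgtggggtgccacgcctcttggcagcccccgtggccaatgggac

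Anpep from -250 to -1, chr7:79848211-79848460 (minus strand): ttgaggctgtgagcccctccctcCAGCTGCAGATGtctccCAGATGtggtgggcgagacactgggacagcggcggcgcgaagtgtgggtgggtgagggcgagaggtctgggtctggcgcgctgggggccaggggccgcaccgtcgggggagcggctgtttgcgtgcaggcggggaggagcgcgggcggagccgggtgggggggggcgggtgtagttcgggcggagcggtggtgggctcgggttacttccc

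The Anpep window lies inside the gene as GENCODE places it, in an intron of its longest-reaching transcript and with 0 bases in an exon of Anpep, while another Anpep transcript begins next to it. The Cnn1 stretch held 1 E box and no CArG box of either form. The Anpep window held 3 E boxes, the first pair of them adjoining, and 72.8% G and C, against a median of 52.4% over all windows and a higher content in 5.68% of them. The motif CATTCC, the MCAT element searched on both strands, was in the windows of Acta2 and Vtn and in 12.64% of all windows. TATAAA, also searched on both strands, was in that of Vtn and in 12.37% of all windows. The Rgs5 window held none of these motifs. These matches are descriptions of letters in a window, and no binding was measured.

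Each library held 19856688 to 29558293 expected counts (estimated numbers of fragments) over the listed genes, and levels are given in CPM, in which each count is divided by the size of its library, corrected for composition. Markers of oligodendrocytes and astrocytes, the resident glia of the nerve, were abundant, with summed levels of 49160 to 62460 CPM and 7724 to 8559 CPM in sham libraries. After crush with AAV-null all 7 oligodendrocyte markers were lower, and 6 of 7 astrocyte markers were lower while Aldh1l1 did not pass (median log2 fold changes of -1.05 and -0.48). Crush AAV-null replicate 6 stood apart from the other 14 libraries on the second principal component. Its effect on the gene lists is given where it moved a count reported here. Groups were compared with edgeR's quasi-likelihood test over 14194 genes in a fit of all 15 libraries, and a gene is called higher or lower where its Benjamini-Hochberg adjusted p was under 0.05.

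The comparison of crush with sham, both with AAV-null, asks what a crush does to the nerve after 7 days. Of the 7 members 4 were higher after crush (Acta2, Tagln, Cnn1 and Anpep), 1 was lower (Vtn), and Pdgfrb and Rgs5 did not pass. That is 71.4% of the members, where 27.6% of all genes tested passed (14.7% higher and 12.9% lower). The median log2 fold change was 0.70 over the members and 0.0048 over all genes. In a bulk sample a change in the number of cells of a type and a change in RNA per cell cannot be told apart, which holds for every result below.

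**Figure D1:**
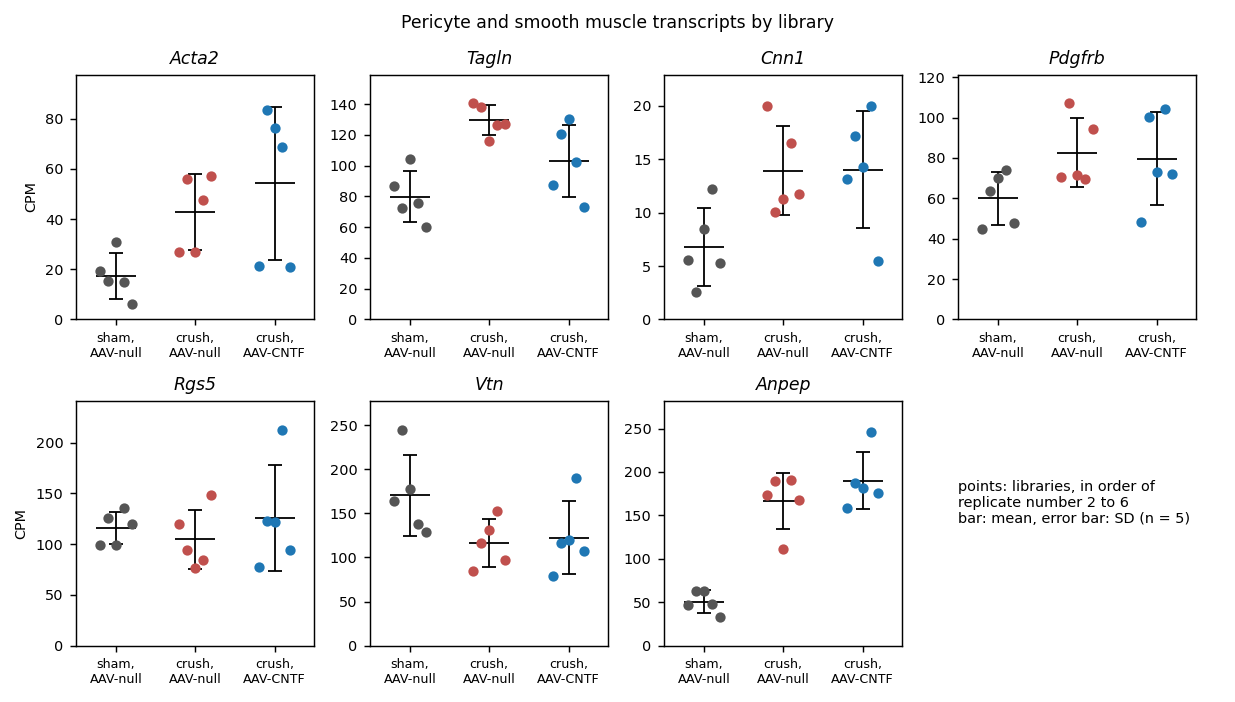
CPM (vertical axis, from 0) of each member in each of the 15 libraries, grouped on the horizontal axis, with the mean as a line and the SD (n = 5) as an error bar. Tagln and Anpep of the crush AAV-null libraries lie above all sham libraries, Acta2 of the crush AAV-CNTF libraries falls into a low pair near 21.1 CPM and 3 between 68.8 and 83.5 CPM, and the Vtn means after crush (116 and 122.5 CPM) lie below the sham mean of 170.5 CPM.

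Acta2 encodes the actin isoform of vascular smooth muscle. Its levels in sham replicates 2 to 6 were 19.3, 15.3, 30.9, 14.8 and 6.03 CPM. In the crush AAV-null libraries they were 26.7, 56.0, 27.0, 47.4 and 57.0 CPM. Replicates 3, 5 and 6 of this group lay above every sham library, while replicates 2 and 4 lay below sham replicate 4. The mean rose from 17.2 ± 9.03 CPM to 42.8 ± 15.1 CPM (SD, n = 5), a 2.49-fold change. On the log2 scale the difference was 1.31 ± 0.40 (SE, 95% interval 0.47 to 2.16; edgeR quasi-likelihood, Benjamini-Hochberg adjusted p = 0.018). The call held in each of the 20 other settings, with adjusted p up to 0.0473.

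Tagln, whose product binds actin filaments in smooth muscle, was measured more evenly. Sham replicates 2 to 6 had 86.5, 72.4, 104, 75.8 and 60.1 CPM, and the crush AAV-null replicates had 141, 138, 116, 126 and 127 CPM. Every crush AAV-null library lay above every sham library. Such separation was found for 20.6% of all genes tested in this comparison, and for 2 of the 7 members. The mean rose from 79.9 ± 16.7 to 130 ± 9.90 CPM (SD, n = 5), with a log2 difference of 0.70 ± 0.15 (SE; edgeR adjusted p = 0.00124). Within the crush AAV-null group Tagln varied least of the members in CPM, with a coefficient of variation of 7.63%, against 35.2% for Acta2 in the same libraries.

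Cnn1, the calponin of smooth muscle, was the member with the fewest counts. Its sham levels in replicates 2 to 6 were 5.54, 2.58, 8.42, 12.2 and 5.26 CPM, and the crush AAV-null levels were 20.0, 10.1, 11.3, 16.5 and 11.7 CPM. The groups overlapped through sham replicate 5, which lay above 3 of the 5 crush libraries. The mean was 6.80 ± 3.65 CPM after sham and 13.9 ± 4.17 CPM after crush (SD, n = 5). The log2 difference was 1.03 ± 0.37 (SE; edgeR adjusted p = 0.0395). This call was lost without any 1 of 5 libraries, with adjusted p = 0.0836, 0.0891 and 0.0887 without sham replicate 2, 3 or 6, and 0.106 and 0.0824 without crush AAV-null replicate 2 or 5.

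Pdgfrb, the receptor through which endothelial PDGF-BB recruits pericytes, did not pass. Its levels were 44.7, 63.7, 70.0, 73.9 and 47.9 CPM in sham replicates 2 to 6 and 70.8, 107, 71.8, 69.4 and 94.2 CPM in the crush AAV-null replicates. Crush replicates 3 and 6 lay above all sham libraries and the other 3 lay among them. The log2 difference was 0.46 ± 0.19 (SE, 95% interval 0.06 to 0.86; edgeR adjusted p = 0.0809), so an increase of up to 1.82-fold was within the interval. In a fit of only the 10 libraries compared the adjusted p was 0.0439, and the authors' deposited table gives an adjusted p of 0.0446 with a log2 fold change of 0.47 and marks Pdgfrb as not differentially expressed.

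Rgs5, a regulator of G protein signalling abundant in pericytes, was 99.0, 126, 99.6, 136 and 119 CPM in sham replicates 2 to 6. The crush AAV-null replicates had 120, 94.6, 76.4, 84.7 and 148 CPM. Crush libraries lay both below (3 of 5) and above (replicate 6) all sham libraries. The log2 difference was -0.15 ± 0.21 (SE, 95% interval -0.59 to 0.30; edgeR adjusted p = 0.674).

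Vtn encodes vitronectin, an adhesive protein of plasma and of the vessel wall. It was 164, 244, 178, 138 and 128 CPM in sham replicates 2 to 6 and 84.2, 116, 131, 152 and 96.7 CPM in the crush AAV-null replicates. Crush replicates 2, 3 and 6 lay below all sham libraries, and replicates 4 and 5 lay within the sham range. The mean fell from 170.5 ± 45.7 to 116 ± 27.0 CPM (SD, n = 5), and the log2 difference was -0.56 ± 0.20 (SE; edgeR adjusted p = 0.0487). The call was lost without sham replicate 2, 3 or 4 (adjusted p = 0.067, 0.165 and 0.0764) and without crush AAV-null replicate 2, 3, 4 or 6 (adjusted p = 0.122, 0.0822, 0.0534 and 0.112). DESeq2 and limma-voom also gave adjusted p above the threshold (0.0839 and 0.0578), whereas the authors' deposited table gives an adjusted p of 0.014 with a log2 fold change of -0.55 and marks Vtn as not differentially expressed.

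Anpep encodes aminopeptidase N, an enzyme of the cell surface that removes amino acids from the ends of peptides. Sham replicates 2 to 6 had 46.9, 62.9, 63.5, 47.5 and 32.7 CPM, and the crush AAV-null replicates had 173, 189, 112, 191 and 168 CPM. The groups did not overlap, with a gap between the highest sham library at 63.5 and the lowest crush library, replicate 4, at 112 CPM. The mean rose 3.29-fold, from 50.7 ± 12.9 to 167 ± 32.3 CPM (SD, n = 5), a log2 difference of 1.72 ± 0.17 (SE; edgeR adjusted p = 2.44e-07). Of all genes tested 5.68% had a larger absolute log2 fold change in this comparison, and the corresponding share was 9.72% for Acta2, 14.9% for Cnn1 and 26.7% for Tagln.

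Markers of other cells that make Anpep and Acta2 moved in the same comparison, and their part in these results was not tested. All 9 myeloid markers were higher after crush, with a median log2 fold change of 1.93, and their summed level was 601 to 814 CPM in sham and 2160 to 3333 CPM in crush AAV-null libraries. Of 12 fibroblast and meningeal markers 6 were higher, 1 (Ptgds) was lower and 5 did not pass, with summed levels of 2071 to 5927 CPM in sham and 5039 to 8296 CPM in crush AAV-null libraries. No marker on either list was at 0 in any library. The collagen gene Col3a1 rose from 376 ± 179 to 1560 ± 438 CPM and Postn, the matrix protein periostin, from 24.9 ± 7.62 to 118 ± 32.4 CPM (SD, n = 5).

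Skeletal muscle, which lies around the nerve in the orbit, shares contractile genes with smooth muscle. Its 7 tested markers summed to 19.3 to 216 CPM in sham, 11.9 to 72.3 CPM in crush AAV-null and 6.63 to 45.9 CPM in crush AAV-CNTF libraries, and 5 of them were at 0 in at least 1 library (Acta1, Myl1, Mylpf, Tnni2 and Tnnt3). None of the 7 passed between crush and sham with AAV-null in edgeR, with a median log2 fold change of -1.42. Between crush AAV-CNTF and sham 2 of 7 were lower, where 14.3% of all genes tested were lower. These were Atp2a1 (log2 difference -2.19, edgeR adjusted p = 0.0373) and Myh1 (-2.07, adjusted p = 0.0267). Both calls were lost without sham replicate 5 (adjusted p = 0.425 and 0.172) and without some other single libraries. Between crush and sham with AAV-null, with the level of this list as a covariate, Acta2, Tagln, Cnn1 and Anpep passed. Vtn did not (log2 difference -0.48, edgeR adjusted p = 0.139). The list itself tended to be lower after crush, so this fit cannot separate muscle from crush. The part of skeletal muscle in the levels of the members was not tested.

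Crush with AAV-CNTF against crush with AAV-null asks what CNTF delivered to the eye adds in the crushed nerve. None of the 7 members passed in edgeR, where 0.0564% of all genes tested (8 genes) were called, 0.0423% higher and 0.0141% lower, and none passed in DESeq2 or limma-voom. At an unadjusted edgeR p under 0.05 there was 1 member, Tagln, beside 1091 of all 14194 genes tested. No member separated the 2 groups without overlap, as 1.55% of all genes tested did. The median log2 difference over the members was 0.0788, against -0.0035 over all genes.

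**Figure D2:**
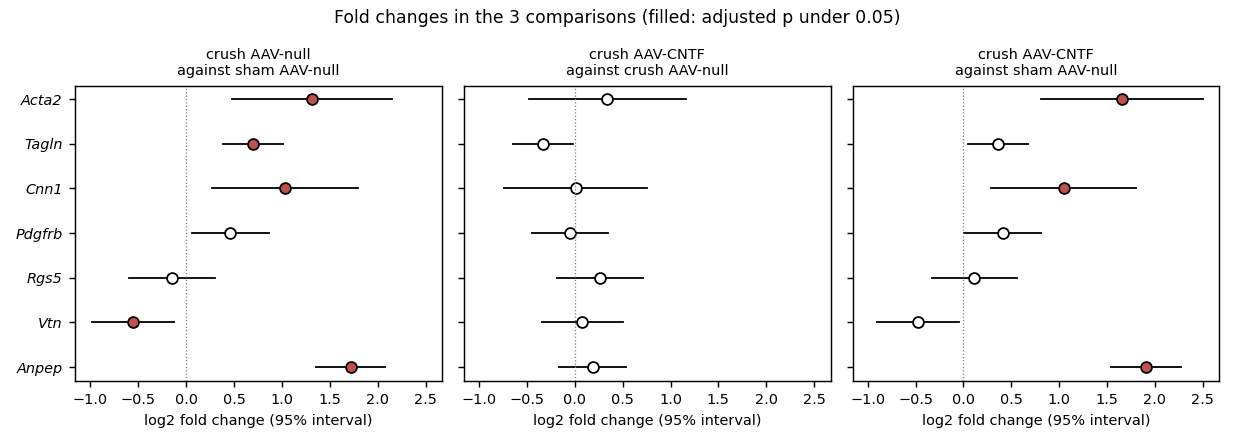
Log2 fold change of each member (horizontal axis) with its 95% interval, in each of the 3 comparisons, filled where the edgeR adjusted p was under 0.05. In the middle panel no member is filled, and the widest intervals belong to Acta2 (-0.48 to 1.16) and Cnn1 (-0.74 to 0.76).

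Acta2 in the crush AAV-CNTF replicates 2 to 6 was 21.2, 83.5, 76.3, 68.8 and 21.1 CPM. Replicates 3, 4 and 5 lay above every crush AAV-null library and replicates 2 and 6 lay below every one, so the mean of 54.2 ± 30.6 CPM (SD, n = 5) describes no single library. The log2 difference from crush AAV-null was 0.34 ± 0.39 (SE; edgeR adjusted p = 0.932). Tagln had 87.1, 121, 131, 102 and 73.2 CPM in the same libraries, again lowest in replicates 2 and 6. Its log2 difference from crush AAV-null was -0.33 ± 0.15 (SE, 95% interval -0.65 to -0.02; unadjusted p = 0.0364, edgeR adjusted p = 0.604), and 3 of the 5 libraries lay below all crush AAV-null libraries.

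The same low pair of libraries recurred across the members. Of the 7 members 4 were lowest of the AAV-CNTF group in replicate 2 and the other 3 in replicate 6, and 5 were highest in replicate 5. The fibroblast list summed to 4464 and 5814 CPM in replicates 2 and 6 and to 8255 to 12010 CPM in replicates 3, 4 and 5. Endothelial markers summed to 433 and 441 CPM in replicates 2 and 6 and to 540 to 737 CPM in the others. A large part of that sum was Cdh5 (190 ± 79.0 CPM in this group, SD, n = 5). The myeloid list did not follow, with 2726 and 2402 CPM in replicates 2 and 6 and 1948 to 2400 CPM in the others. The pericyte list did not separate the pair from the rest, with 1099 and 1002 CPM in replicates 2 and 6 and 1083 to 1199 CPM in the others. The largest part of that sum was 1 gene, S1pr3 (596 ± 85.1 CPM in this group, SD, n = 5), so it says little about the less abundant markers. The part of these levels in the spread of Acta2 and Tagln was not tested.

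Cnn1 in crush AAV-CNTF replicates 2 to 6 was 13.2, 17.2, 14.3, 20.0 and 5.43 CPM, and only replicate 6 lay within the sham range. Its log2 difference from crush AAV-null was 0.011 ± 0.36 (SE; edgeR adjusted p = 0.997). Pdgfrb was 48.2, 101, 73.3, 105 and 71.9 CPM, and Rgs5 was 77, 123, 121, 212 and 93.7 CPM. Replicate 5 gave the highest Rgs5 level of all 15 libraries. Vtn was 79.5, 116, 120, 190 and 107 CPM, again highest in replicate 5. Anpep was 159, 188, 182, 246 and 176 CPM, all above the 63.5 CPM of the highest sham library. The intervals of the log2 difference from crush AAV-null were -0.45 to 0.35 for Pdgfrb, -0.19 to 0.71 for Rgs5, -0.35 to 0.51 for Vtn and -0.16 to 0.54 for Anpep, and the edgeR adjusted p ran from 0.886 to 0.982.

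Against sham, the crush AAV-CNTF libraries were called higher for 3 of the 7 members, Acta2, Cnn1 and Anpep, and lower for none. That is 42.9% of the members, where 31.3% of all genes tested passed (17% higher and 14.3% lower). Only Anpep did not overlap between these groups, as did 23% of all genes tested. The sham libraries are the same as in the comparison with crush AAV-null, so the values of both comparisons share their error and are set side by side only. The log2 difference from sham was 1.65 ± 0.41 for Acta2 (SE; edgeR adjusted p = 0.00341), where crush AAV-null gave 1.31. For Anpep it was 1.91 ± 0.17 (adjusted p = 6.39e-08), where crush AAV-null gave 1.72.

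Cnn1 had a log2 difference of 1.05 ± 0.37 (SE; edgeR adjusted p = 0.0336) from sham. This call was lost without sham replicate 2, 3 or 6 (adjusted p = 0.0726, 0.0772 and 0.0774), without crush AAV-CNTF replicate 3, 4 or 5 (0.0761, 0.0543 and 0.0944) and in a fit of only the 10 libraries (0.057), and the authors' deposited table gives an adjusted p of 0.0529 for it. Tagln did not pass, with 0.36 ± 0.15 (adjusted p = 0.0711), but passed without sham replicate 4 (0.0177) or crush AAV-CNTF replicate 2 (0.0494) or 6 (0.0185). Vtn had -0.48 ± 0.20 (adjusted p = 0.0843) and passed without crush AAV-CNTF replicate 5 (log2 difference -0.69; adjusted p = 0.00833) and in limma-voom (0.0477). Pdgfrb had 0.41 ± 0.19 (adjusted p = 0.115) and passed without crush AAV-CNTF replicate 2 (0.0227). Rgs5 had 0.11 ± 0.21 (adjusted p = 0.739).

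Levels of different genes can be compared per length, in FPKM (fragments scaled to gene length and library size). In sham nerves Vtn was the highest member at 106 ± 25.5 FPKM, followed by Tagln at 54.1 ± 12.8 and Rgs5 at 27.4 ± 3.72 FPKM (SD, n = 5), and the libraries of each of these did not overlap with those of the next. Anpep (15.1 ± 3.43), Pdgfrb (10.6 ± 2.41), Acta2 (10.1 ± 5.49) and Cnn1 (6.90 ± 3.76 FPKM) followed, each overlapping with its neighbour. In crush AAV-null nerves the order of mean FPKM was Tagln (98.3 ± 8.51), Vtn (85.1 ± 21.3), Anpep (51.4 ± 11.2), Acta2 (28.4 ± 10.3), Rgs5 (27.9 ± 7.41), Pdgfrb (16.5 ± 3.80) and Cnn1 (11.7 ± 3.99), and every neighbour pair overlapped. With AAV-CNTF the order was Vtn (92.4 ± 33.6), Tagln (78.1 ± 18.2), Anpep (58.8 ± 12.1), Acta2 (36.1 ± 20.7), Rgs5 (33.5 ± 14.4), Pdgfrb (15.9 ± 4.8) and Cnn1 (14.9 ± 2.84 FPKM), and again every neighbour pair overlapped.

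For Cnn1 the count and the FPKM ordered the libraries differently. Sham replicate 4 had 181 expected counts of Cnn1 but 3.85 FPKM, and sham replicate 6 had 130 counts but 9.03 FPKM. The gene length implied by the count and the FPKM of a library varied 4.99-fold across the 15 libraries for Cnn1, and only 3.27% of the 10788 genes examined varied more. It varied 1.35-fold for Anpep, 1.17-fold for Vtn and 1.04-fold or less for the other 4 members. RSEM assigns fragments to transcripts before it sums them to a gene, and Cnn1 has 5 annotated transcripts of 370 to 2381 bases. In FPKM the crush AAV-CNTF libraries (11.8 to 18.9) lay above all sham libraries (2.23 to 11.3), whereas in CPM replicate 6 lay within the sham range. The scaling also differs, because the deposited FPKM lack the correction for composition that the CPM hold. The factors of that correction were 0.88 to 0.95 in sham and 0.99 to 1.06 in crush AAV-CNTF libraries. The part of scaling and of implied length in this separation was not tested.

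**Figure D3:**
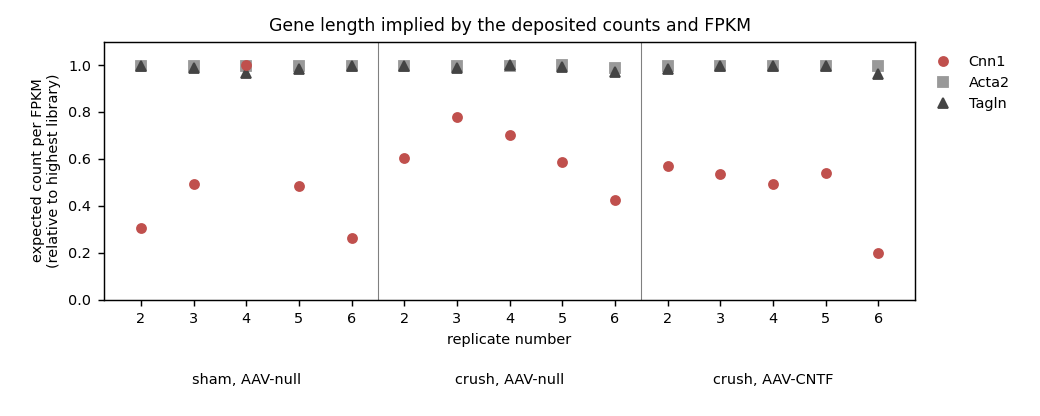
Expected count per FPKM, corrected for library depth and set relative to the highest library (vertical axis), for Cnn1, Acta2 and Tagln in the 15 libraries ordered by group and replicate number. Acta2 and Tagln stay near the highest value, while Cnn1 runs from 0.2 in crush AAV-CNTF replicate 6 to 1 in sham replicate 4.

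Whether the members varied together between libraries of 1 group was examined on log2 CPM after subtracting each group's mean, over 15 libraries and 21 pairs of members. Acta2 and Tagln were the pair that passed adjustment over the 21 pairs, with Pearson's r = 0.853 (100000 permutations within groups, two-sided, p = 0.00147, Benjamini-Hochberg adjusted p = 0.0309) and Spearman's rho = 0.846 (permutation p = 0.0013, adjusted p = 0.0273). Without the 2 libraries farthest from the median of Acta2, r was 0.748. Of the 21 values of r 20 were positive, and the exception was Cnn1 with Vtn (r = -0.115). Acta2 with Anpep gave r = 0.672 (permutation p = 0.00691, adjusted p = 0.0726) and Pdgfrb with Rgs5 gave r = 0.63 (permutation p = 0.0324, adjusted p = 0.136), neither past the threshold. Acta2 with Cnn1, both contractile genes, gave r = 0.358 (permutation p = 0.28, adjusted p = 0.394). Libraries share their scaling across all genes, which can add to such values.

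**Figure D4:**
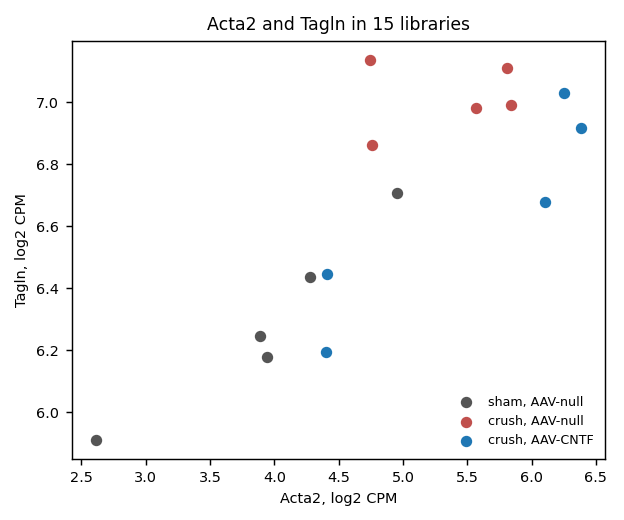
Log2 CPM of Acta2 (horizontal axis) and of Tagln (vertical axis) in each of the 15 libraries, coloured by group. Within the sham and the crush AAV-CNTF libraries Tagln tends to be higher where Acta2 is higher, and the 5 crush AAV-null libraries lie in the upper part of the plot.

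Over all 15 libraries, group differences included, the genes whose log2 CPM followed each member best among 11677 genes were listed as a description. For Acta2 these were Col12a1 (r = 0.945) and Col5a1 (r = 0.932), both collagens, and Map3k3 (r = 0.924). Col12a1 averaged 77.6 CPM in sham, 203 in crush AAV-null and 238 CPM in crush AAV-CNTF libraries. For Tagln they were Galk2 (0.91), Myof (0.897) and Dkk2 (0.878), and for Cnn1 they were Tmem261 (0.886), Tk1 (0.884) and CT030161.2 (0.881). Pdgfrb was followed by Lrrn3 (0.923), Foxc2 (0.875) and Rbfox2 (0.872). Rgs5 was followed by Aifm2 (0.87), Klf12 (0.816) and Abcc9 (0.777), the last a potassium channel subunit of the pericyte list. Vtn was followed by Ecm2 (0.897), Nfe2l1 (0.875) and Lgr4 (0.855). Anpep had the closest matches of the 7, Myh9 (0.973), Iqgap1 (0.971) and Dab2 (0.97), and Dab2 averaged 47.9 CPM in sham, 179 in crush AAV-null and 190 CPM in crush AAV-CNTF libraries.

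Most other markers of pericytes did not pass, as was the case for most of all genes tested. Of 19 tested, 1 was higher after crush with AAV-null, 1 was lower and 17 did not pass in edgeR. Their median log2 fold change was 0.26. Of all genes tested 14.7% were higher and 12.9% lower, and the same shares stand beside the list counts of this comparison below. Cspg4, the NG2 proteoglycan, which pericytes share with the NG2 glia of the nerve, rose from 64.3 ± 7.86 to 164 ± 23.2 CPM (SD, n = 5; log2 difference 1.35 ± 0.13, SE; adjusted p = 1.77e-07). Kcnj8, a potassium channel subunit, fell from 12.4 ± 4.02 to 5.51 ± 3.50 CPM (log2 difference -1.17 ± 0.36, SE; adjusted p = 0.0198), a call that was lost when sham replicate 2, or replicate 3 or 4 of the crush AAV-null group, was left out (adjusted p = 0.0661, 0.0531 and 0.0523). Its partner Abcc9 was 27.7 ± 4.78 CPM in sham and 20.2 ± 4.49 CPM in crush AAV-null libraries (adjusted p = 0.294). The summed level of the list was 924 to 1083 CPM in sham, 990 to 1129 CPM in crush AAV-null and 1002 to 1199 CPM in crush AAV-CNTF libraries. The largest part of this sum was 1 gene, S1pr3, at means of 592, 555 and 596 CPM in these groups. The sum therefore says little about the less abundant markers. Endothelial markers, the vessel cells that mural cells cover, were 1 higher (Cdh5), 3 lower (Flt1, Slc2a1 and Egfl7) and 9 not past the threshold, with summed levels of 521 to 577 CPM in sham and 451 to 529 CPM in crush AAV-null libraries. The call of Egfl7 was lost on leaving out sham replicate 3 or 5 or any 1 crush AAV-null library (adjusted p from 0.0578 to 0.156).

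Contractile smooth muscle genes moved in both directions. Of 21 tested 9 were higher after crush with AAV-null, 3 were lower and 9 did not pass, with a median log2 fold change of 0.40. The 9 that rose were Mylk, Myl6, Smtn, Cald1, Tpm1, Actg2, Flna, Vcl and Actn1, several of which, such as Flna, Vcl, Actn1 and Myl6, serve the actin cytoskeleton of most cells. Smtn, the smooth muscle protein smoothelin, rose from 25.7 ± 8.16 to 50.3 ± 7.47 CPM (SD, n = 5; log2 difference 0.97 ± 0.18, SE; edgeR adjusted p = 0.000385). Vcl passed with all libraries (adjusted p = 0.0359) and failed without any 1 of 6 libraries (sham replicates 2, 3 and 6 and crush AAV-null replicates 3, 4 and 6, adjusted p from 0.0656 to 0.0903). The 3 that fell were Synpo2 (197 ± 13.3 to 92.7 ± 22.2 CPM; log2 difference -1.09 ± 0.14; adjusted p = 4.88e-06), Csrp1 and Ppp1r14a. Without crush AAV-null replicate 6, Sncg (adjusted p = 0.0491) and Casq2 (0.0117) joined them, making 5. Myh11, the smooth muscle myosin heavy chain, was not found by name among the 14237 genes and could not be tested. Myl9, the regulatory light chain, was 28.6 ± 9.81 CPM in sham and 34.1 ± 7.50 CPM after crush (edgeR adjusted p = 0.522).

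**Figure D5:**
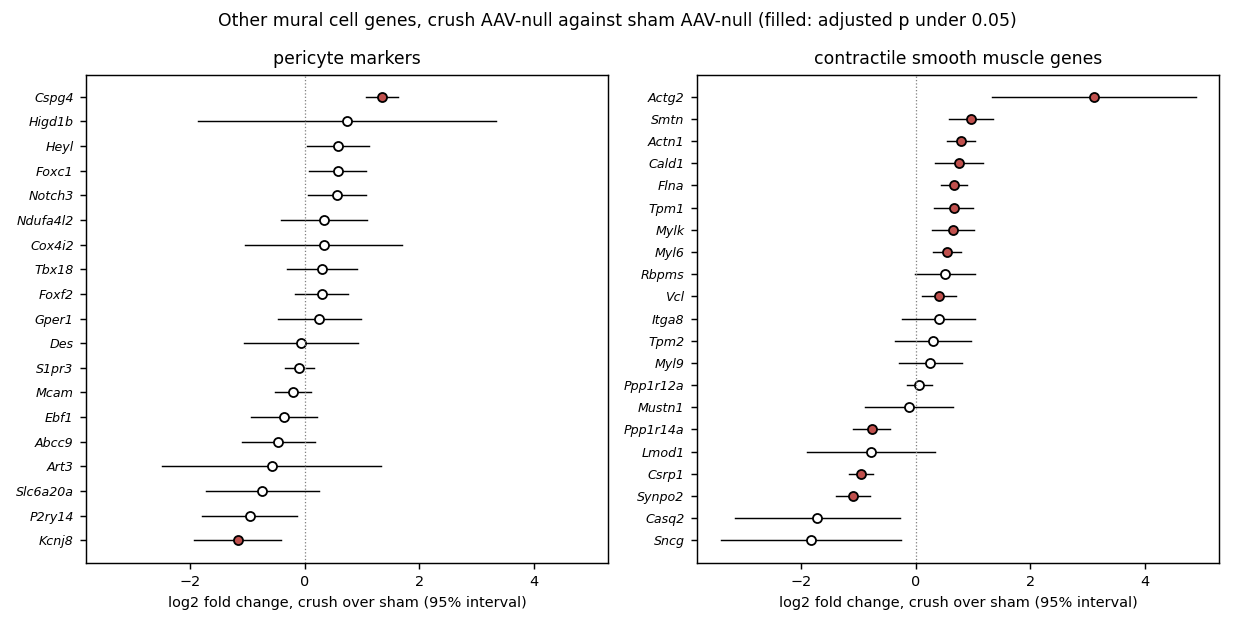
Log2 fold change of crush over sham, both with AAV-null (horizontal axis), with 95% intervals, for 19 other pericyte markers and 21 other contractile genes, filled where the edgeR adjusted p was under 0.05. Of the pericyte markers Cspg4 and Kcnj8 are filled, and of the contractile genes 9 are filled on the right and 3 on the left of 0.

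Regulators of the contractile programme mostly did not pass, as was the case for most of all genes tested. Of 10 tested only Mkl1, a coactivator of serum response factor, rose after crush with AAV-null (22.8 ± 3.62 to 41.0 ± 5.69 CPM; log2 difference 0.85 ± 0.14, SE; edgeR adjusted p = 7.43e-05). Srf itself was 37.1 ± 8.27 CPM in sham and 48.2 ± 6.55 CPM after crush (adjusted p = 0.0787), and it passed when sham replicate 4, or replicate 4 of crush AAV-null, was left out (0.0439 and 0.0496). Among 5 ligands and receptors of the PDGF family beside Pdgfrb, Pdgfb rose from 16.6 ± 3.06 to 25.0 ± 3.18 CPM (adjusted p = 0.00735) and Pdgfc from 13.2 ± 1.80 to 25.9 ± 5.04 CPM (adjusted p = 0.00193). Pdgfa, Pdgfd and Pdgfra did not pass.

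The relatives of the contractile members include forms made by many cell types. Of 8 tested calponins, transgelins and actins 5 were higher after crush with AAV-null, Cnn2, Tagln2, Actb, Actg1 and Actg2, 1 was lower and 2 did not pass. Tagln2, a transgelin of many cell types, rose from 91.9 ± 16.0 to 177 ± 15 CPM (SD, n = 5; edgeR adjusted p = 1.7e-06), while Tagln3, the neuronal transgelin, fell from 55.7 ± 4.11 to 21.4 ± 7.70 CPM (adjusted p = 0.000185). Actb, the cytoplasmic actin, rose from 3198 ± 207 to 5578 ± 638 CPM (log2 difference 0.80 ± 0.09, SE; adjusted p = 1.19e-06). Cnn3 was 427 ± 47.2 CPM in sham and 450 ± 62.4 CPM after crush (adjusted p = 0.643).

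Among 6 RGS proteins of the family of Rgs5, Rgs1 and Rgs16 were higher, Rgs3 was lower and 3 did not pass. Rgs1, best known from leukocytes, was 0.878 ± 0.821 CPM in sham, with 0 in at least 1 library, and 14.2 ± 12.0 CPM in crush AAV-null libraries (SD, n = 5; edgeR adjusted p = 0.000771). Rgs2, a regulator also present in smooth muscle, was 153 ± 20.3 and 153 ± 27.1 CPM (adjusted p = 0.981). Of 7 other peptidases, most of them of the membrane, 3 were higher (Ctsc, Erap1 and Enpep) and 2 lower (Lnpep and Npepps). On leaving out 1 library the calls were lost for Erap1 (sham replicate 6, crush AAV-null replicates 4 and 6; adjusted p from 0.0644 to 0.0733), Npepps (sham replicate 6, crush AAV-null replicates 3 and 5; 0.0563 to 0.0753) and Lnpep (sham replicates 3, 4 and 6, crush AAV-null replicates 3, 4 and 5; 0.0581 to 0.0759). Ctsc, a lysosomal peptidase, rose from 38.3 ± 4.09 to 123 ± 29.7 CPM (adjusted p = 3.26e-06). Enpep, an aminopeptidase that pericytes also carry, was 0.862 ± 1.21 CPM in sham and 5.29 ± 1.53 CPM after crush (adjusted p = 0.0219). It was at 0 in at least 1 of the 15 libraries, and its edgeR adjusted p reached 0.0476 with 1 library left out.

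The integrins that bind vitronectin and the plasminogen system that it touches were mostly higher after crush. Of 9 genes tested 7 were higher after crush with AAV-null, 1 (Itgb8) was lower and Plat did not pass, with a median log2 fold change of 0.65. Plat passed in DESeq2, and in edgeR without crush AAV-null replicate 3 or 5 (adjusted p = 0.0313 and 0.0383). Itgb5, the integrin chain that pairs with alpha v to bind vitronectin, rose from 95.5 ± 21.5 to 272 ± 32.3 CPM (SD, n = 5; edgeR adjusted p = 6.3e-08), and Itgav from 226 ± 21.7 to 334 ± 20.8 CPM (adjusted p = 3.95e-05). Plau, the urokinase protease, rose from 4.92 ± 1.78 to 34.5 ± 16.9 CPM (adjusted p = 1.39e-06).

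Between crush with AAV-CNTF and crush with AAV-null, none of the 137 other genes on the 14 lists passed in edgeR or limma-voom. An unadjusted edgeR p under 0.05 was found for 1091 of all 14194 genes tested and for 20 of these 137. In DESeq2 1 passed, the aminopeptidase Lnpep, which averaged 130 ± 21.7 CPM with AAV-CNTF and 96.2 ± 8.25 CPM with AAV-null (SD, n = 5; edgeR adjusted p = 0.143). Of the 19 pericyte markers 3 and of the 21 contractile genes 0 had an unadjusted p under 0.05. Against sham, the crush AAV-CNTF libraries had 4 pericyte markers higher (Notch3, Cspg4, Foxc1 and Heyl), 1 lower (Slc6a20a) and 14 not past the threshold. Heyl, a target of Notch signalling in mural cells, was 19.3 ± 3.08 CPM in sham and 42.9 ± 21.2 CPM in these libraries (edgeR adjusted p = 0.00156), with 28.8 ± 6.10 CPM in crush AAV-null libraries. The call of Notch3 was lost without sham replicate 2 or 4 or crush AAV-CNTF replicate 3 or 5 (adjusted p from 0.0648 to 0.0805), and that of Slc6a20a without sham replicate 2, 3 or 4 or crush AAV-CNTF replicate 2, 3, 5 or 6 (0.0501 to 0.194). For the contractile genes the counts against sham were 9 higher and 3 lower (4 lower in the fit without crush AAV-null replicate 6). Of all genes tested 17% were higher and 14.3% lower between crush AAV-CNTF and sham.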

How the data were processed

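Total RNA of mouse optic nerves was sequenced, with 2 library kits named in the labels' protocols (the sources used here do not say which served which library). Per the submitters' processing notes Trimmomatic 0.32, STAR 2.5.3a, RSEM 1.2.31, R 3.2.3 and DESeq2 were used with mm10. The sources used here do not name the annotation. The 1 table that the authors deposited holds, per the file headers, RSEM expected counts and FPKM per library, and the authors' log2 fold changes and adjusted p-values for 3 pairs of groups. All listed genes reach 1 FPKM in 4 or more libraries of a group, so the table leaves out genes of low level.

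Of the expected counts 13.7% to 18.3% per library were not whole and were rounded. They were fitted in R 4.3.3 with edgeR 4.0.16 (TMM, filterByExpr, quasi-likelihood, 1 mean per group, 12 residual degrees of freedom, Benjamini-Hochberg over 14194 genes). Standard errors were taken from the F statistic, and log2 CPM used a prior count of 2. At this depth counting error is small for most genes, but not for those of few counts, such as Rgs1 and Enpep in sham. For most genes precision depends on how much libraries of a group differ (biological coefficient of variation 0.37). That difference holds animals, dissection and library preparation together. The script was tested on simulated counts. Alternatives were other normalizations and filters, a fit of the 10 libraries compared, a replicate block, DESeq2 1.42.0, limma 3.58.1 with voom, a skeletal muscle covariate and leaving out each library. Other genes are named where they have the largest change past the threshold on a list (at most 2 per list and comparison, mean of at least 5 CPM), where none passed as the most abundant, or as the 3 best correlated genes of a member. Further list genes were named after their values were seen. The members and the 14 lists were chosen with earlier results of these data known, and 1 gene of a list is not reported here.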

Additional observations from a re-analysis of the deposited data

Results flagged for a closer look

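Anpep in crush AAV-null replicate 4 was 112 CPM, while the other 4 libraries of that group lay between 168 and 191 CPM. It lay farther from its nearest neighbour than Dixon's 95% criterion for 5 samples allows, 1 of 21 combinations of member and group examined, and chance flags about 1 in 20. This library was also the lowest of its group for 2 other members. Without it the log2 difference of Anpep from sham was 1.83 and the call held.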

How the results depend on the processing

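Over 420 recomputed fold changes of members, 373 kept their direction and their side of the threshold, 22 lost their call, 10 gained one and 15 changed sign, all of them differences past the threshold neither before nor after. Rgs5 between crush and sham with AAV-null became 0.060 with the skeletal muscle covariate. Cnn1 between crush AAV-CNTF and crush AAV-null became -0.0097 under upper quartile scaling, -0.028 with the replicate block and -0.083 in limma-voom. With 1 library left out, that comparison gave -0.15 to 0.22 for Cnn1, -0.17 to 0.083 for Pdgfrb, -0.014 to 0.42 for Rgs5 and -0.13 to 0.20 for Vtn, and Rgs5 between crush AAV-CNTF and sham gave -0.16 to 0.25. The cause was not tested. Acta2, Tagln and Anpep between crush and sham with AAV-null, and Acta2 and Anpep between crush AAV-CNTF and sham, kept their calls in all 20 settings each. The number of genes past the threshold between crush AAV-CNTF and crush AAV-null (8) was 1 with only the 10 libraries compared, 83 with DESeq2, 5 with limma-voom and 30 with the skeletal muscle covariate, and ran from 1 to 41 with 1 library left out. The cause was not tested. Members called between crush and sham with AAV-null (5) ran from 3 to 5 with 1 library left out, with 3 when sham replicate 2 or 3, or replicate 2 of crush AAV-null, was left out. Between crush AAV-CNTF and sham (3) they ran from 2 to 5, with 5 without crush AAV-CNTF replicate 2.

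Same-numbered libraries of different groups did not deviate together (correlations of -0.053 to 0.11 over 15 pairs, 1 of them over 0.1), so the numbers were not taken to pair them. With the replicate block, 16 genes were called between crush AAV-CNTF and crush AAV-null, and 5 members between crush AAV-CNTF and sham, where Tagln (adjusted p = 0.0499) and Vtn (0.0275) joined. Pdgfrb passed with the block between crush and sham with AAV-null (0.0294). Of 336 recomputed list counts, alternatives chosen after seeing the data, 332 stayed within 1.5 times and 4 moved, among them 2 for lower PDGF genes between crush AAV-CNTF and sham under upper quartile scaling (0 otherwise).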
